A study of Mus musculus with 15 samples.

Results

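Subcutaneous preadipocytes of C57Bl/6 mouse pups were compared between milks with little and with much n6 relative to n3 fatty acid, called low-ratio and high-ratio milk here. The members are the 7 bulk RNA-seq libraries of CD24− cells, which the submitters call preadipocytes, out of 15 libraries in the series. Of these, 4 came from pups on low-ratio milk (library numbers 108, 114, 119 and 133) and 3 from pups on high-ratio milk (1015, 1017 and 1019). Each library was placed by the ratio in its sample characteristics and by nothing it expresses. The source names of the 4 low-ratio libraries read high instead, a conflict that the labels do not resolve. All groups are wild-type animals nursed by foster dams, and CD24 is a surface protein that the cell sorting used to part earlier from later adipocyte precursors. Exposure to the milk lasted 12 days by the growth protocol and 10 days by the treatment protocol. The other 8 libraries are CD24+ cells, called progenitors, 4 on each milk, and they enter only the closing comparison. How many animals each library holds is not given in the labels, and the p-values therefore reflect only the variation from library to library, which may be partly technical.

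Linoleic acid and the longer n6 acids made from it compete with the n3 series for the same desaturases, the same place in membrane lipids and the same oxygenases that make prostanoids and related mediators. Preadipocytes are fibroblast-like cells that carry the platelet-derived growth factor receptor PDGFRα, lay down much collagen, and become fat cells when PPARγ, a nuclear receptor that binds fatty acids, switches on the genes of lipid storage. Their energy comes from glycolysis and from the respiratory chain, whose subunits are encoded partly in the mitochondrial genome and partly in the nucleus.

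Estimated depth was 35.1 to 49.6 M reads in the low-ratio libraries and 13.9, 69.0 and 22.9 M reads in the high-ratio libraries 1015, 1017 and 1019. Listed at 0 were 1561 to 2104 genes in the low-ratio libraries, against 3153, 811 and 2546 in the high-ratio libraries. The defining markers of the labelled cell type were present in every library. Pdgfra, which encodes PDGFRα, had 11126, 16179, 21984 and 16477 normalized counts in the low-ratio libraries 108, 114, 119 and 133, against 11054, 12371 and 14537 in the high-ratio libraries 1015, 1017 and 1019, and this order of libraries is kept below. Pparg, the gene of PPARγ, had 668, 524, 1014 and 1028 normalized counts on low-ratio milk, against 785, 623 and 510.3 on high-ratio milk. The groups overlapped for both, as they did for the sort gene Cd24a (562, 681, 589.5 and 633 on low-ratio milk and 587, 719.8 and 588 on high-ratio milk), and none of these 3 genes passed the test (adjusted p = 0.367, 0.539 and 0.912). Markers of fat cells with a filled lipid droplet summed to 334 to 409 normalized counts in the low-ratio libraries and 308 to 398 in the high-ratio libraries, with Lep and Retn, 2 hormones of mature fat cells, below a mean of 10.

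Preadipocytes on low-ratio milk had higher levels of a small set of genes, led by Myo5b, Gpd2, Donson and Fbxw7, and lower levels of a larger set that held mitochondrial, ribosomal, proteasome, proteoglycan and chemokine genes. Normalized counts are read counts that the authors scaled to a common library size, recovered here from their log-scale values, and tests were run on log2(normalized count + 1). Of 15893 genes with a mean of at least 10, 458 passed a Benjamini-Hochberg adjusted p of 0.05 in limma (2.88%), 85 higher on low-ratio milk (0.535%) and 373 lower (2.35%). At an unadjusted p under 0.05 there were 3454. Among the 458, 26 genes were higher by at least 1 on the log2 scale and 195 were lower by at least that much, with medians of 0.78 in the higher and −1.01 in the lower genes. In each of the 458 the libraries of the milks did not overlap, and the same held for 1609 genes higher (10.1%) and 1748 genes lower (11.0%) of all those tested. Log2 fold changes were positive in 8600 of the 15893 genes and negative in 7293. Their median was 0.04 over all genes and 0.14 in the quintile of highest mean. These values over all genes are the background for the lists below, and no list was tested against it.

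The count depended on every library. It was 2 without low-ratio library 108, 13 without 114, 16 without 119 and 4 without 133, and it was 16 without high-ratio library 1015, 7 without 1017 and 1160 without 1019. Library 1019 was the high-ratio library nearest the low-ratio ones in 326 of the 373 lower genes and in 44 of the 85 higher genes. The high-ratio libraries did not form a close group. Their Pearson correlations with each other were 0.926 to 0.945, against 0.954 to 0.960 among low-ratio libraries and 0.915 to 0.948 between milks. All 458 kept their direction in each of these 7 fits. None passed in all 7, 421 passed in 1 of them and 14 in none. Of the genes described below, Gpd2 and Myo5b passed in 5 of the 7 fits, Tceal9 in 4, mt-Cytb in 3, and Slc7a5, Fbxw7, Donson, Ube2w, Dcun1d1, Ccl7, Ogn, mt-Nd4 and mt-Nd4l in 2. Limma without its trend and robust options gave 6 calls over all genes. None of the mitochondrially encoded, nuclear respiratory chain, ribosomal protein, translation factor, proteasome or antioxidant genes listed below was among them. Once a smooth dependence on GC content and transcript length was taken out of each library, 12 genes passed (0.0755%), of which 9 were higher and 3 lower. These 12 are named near the end, and every other gene said below to have risen or fallen lost its call under that removal. Over the 90 that the rule for named genes chose, the adjusted p in limma was then 0.0556 to 0.429 (median 0.0682), and the log2 fold change was 16.7% to 127% of its size before the removal (median 76.1%). For Slc7a5 and Mcm2 it hardly moved, at 2.46 and 1.19 after removal, against 2.45 and 1.20 before it. For the lower genes mt-Atp8 and mt-Nd4 it was −0.24 and −0.28 after removal, against −1.44 and −0.94 before it. The part of GC content or length in the lost calls was not tested.

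The leading higher genes act in transport, ubiquitin transfer, replication and small-molecule metabolism. Gpd2, the flavin-linked glycerol-3-phosphate dehydrogenase of the inner mitochondrial membrane, had 920.5, 1086, 1305 and 521 normalized counts on low-ratio milk, against 101, 100.5 and 140.0 on high-ratio milk. Library 133 was the lowest of the low-ratio libraries and still lay above every high-ratio library. Its log2 fold change, low minus high, was 3.003 ± 0.31 (SE, adjusted p = 0.0152). Fbxw7, the receptor by which an SCF ubiquitin ligase recognizes cyclin E, MYC and other substrates, had 1089, 1082, 1292 and 392 normalized counts on low-ratio milk, against 92.3, 106 and 91.9 on high-ratio milk. Again 133 was lowest on low-ratio milk, and the high-ratio libraries lay close together. The log2 fold change was 3.17 ± 0.38 (SE, adjusted p = 0.0204). Myo5b, a myosin that moves recycling endosomes, had 140.3, 65.1, 101 and 97.9 normalized counts on low-ratio milk, against 6.52, 7.67 and 3.44 on high-ratio milk, where it was near the detection limit (3.90 ± 0.39 SE, adjusted p = 0.0152). Donson, a component of the replication fork, had 155, 163, 138 and 119 normalized counts on low-ratio milk, against 19.9, 33.4 and 32.1 on high-ratio milk (2.32 ± 0.27 SE, adjusted p = 0.0204). Gcc2, a golgin that tethers vesicles at the trans-Golgi, had 830.0, 1217, 890.1 and 771 on low-ratio milk, against 294, 343 and 363 on high-ratio milk (1.46 ± 0.18 SE, adjusted p = 0.0204). These 5 genes remained past the threshold with the trend on GC content and length removed (adjusted p = 0.0176, 0.0304, 0.0176, 0.0304 and 0.0204).

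**Figure D1:**
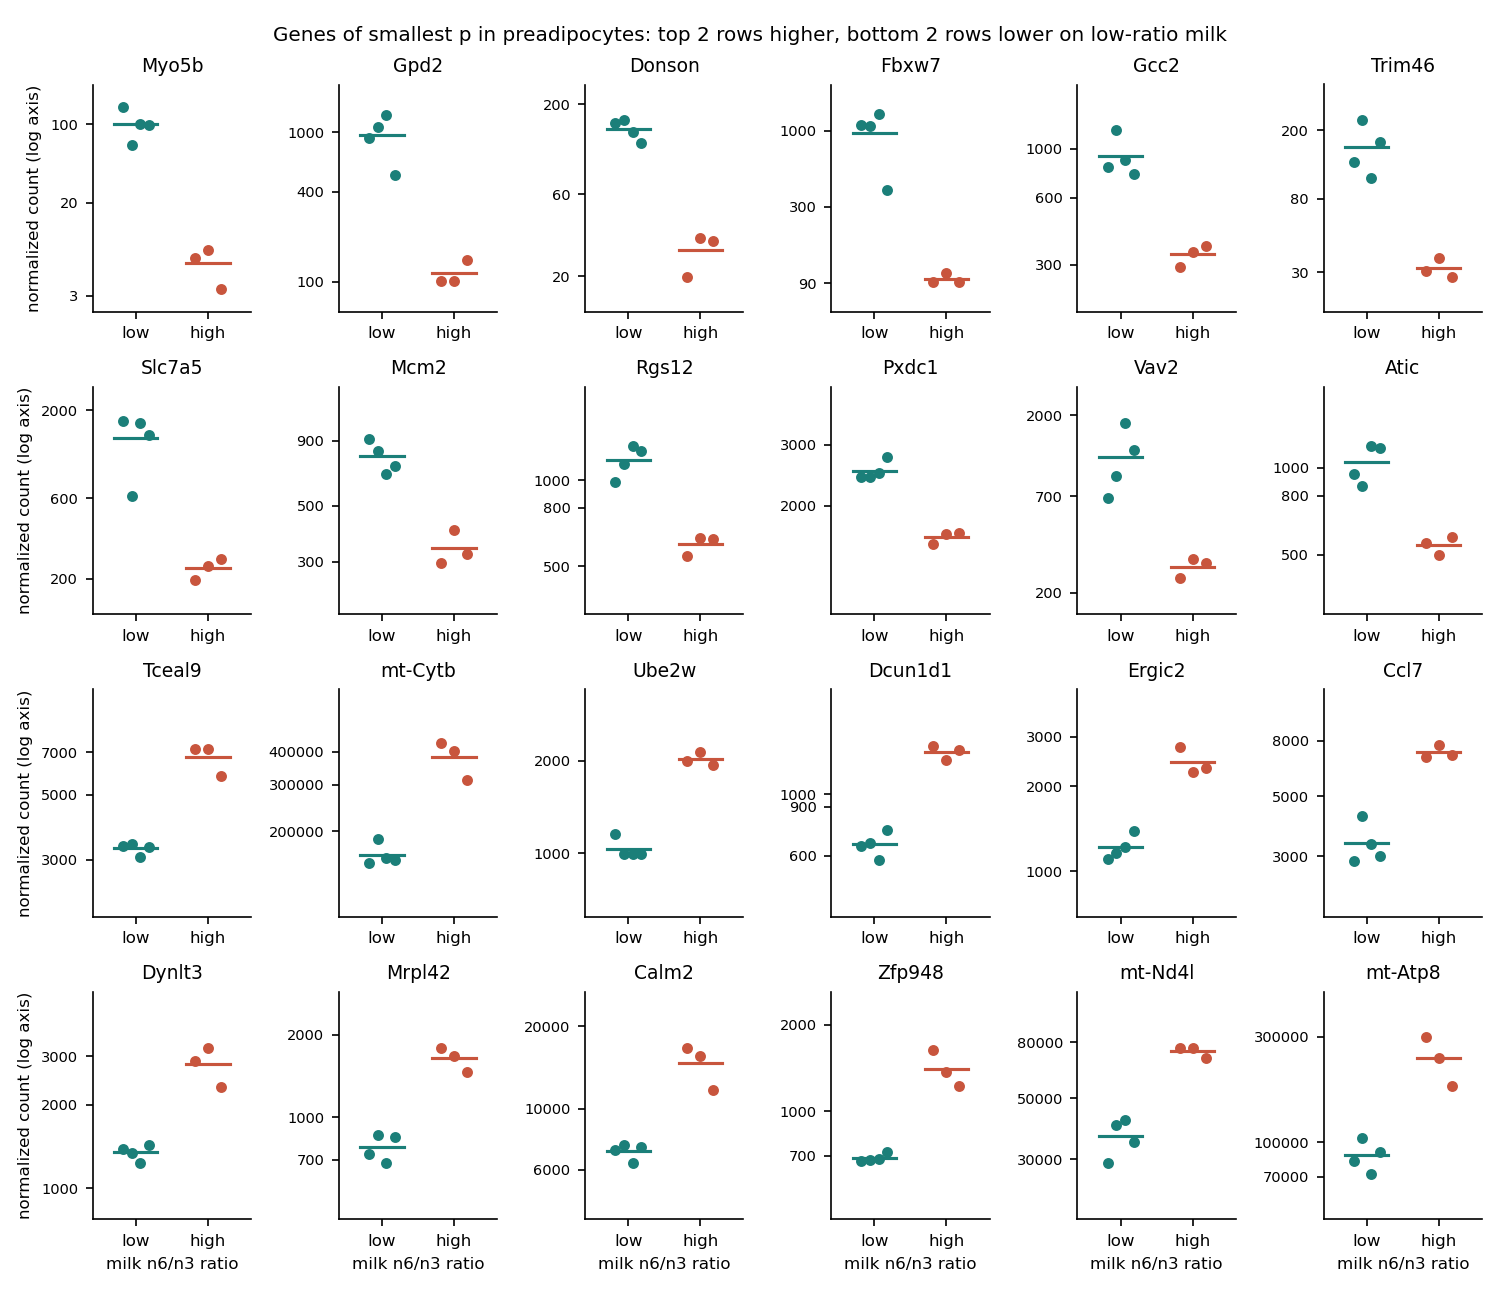
Normalized counts (log axis) of the 24 genes of smallest p, 12 higher on low-ratio milk (top 2 rows) and 12 lower (bottom 2 rows), with a point for each of the 4 low-ratio (left) and 3 high-ratio (right) preadipocyte libraries and a bar at the group mean. In each gene every low-ratio library lies on one side of every high-ratio library, and Gpd2 and Fbxw7 show the lowest low-ratio value in library 133.

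The other leading higher genes had smaller or more scattered differences. Slc7a5, the light chain of the LAT1 transporter of large neutral amino acids, had 1726, 617, 1680 and 1430 normalized counts on low-ratio milk, against 196, 238 and 262 on high-ratio milk. Library 114 stood well below the other 3 low-ratio libraries and above the high-ratio ones (2.45 ± 0.34 SE, adjusted p = 0.023). Vav2, an exchange factor for small GTPases, had 682, 910.1, 1808 and 1282 on low-ratio milk and 242, 308 and 292 on high-ratio milk (1.97 ± 0.30 SE, adjusted p = 0.0293), and its low-ratio libraries differed among themselves by more than any high-ratio level. Trim46, a microtubule-organizing protein known from neurons, had 131, 231, 106 and 171 on low-ratio milk and 30.6, 36.5 and 28.3 on high-ratio milk (2.24 ± 0.31 SE, adjusted p = 0.023). Mcm2, a subunit of the replicative helicase, had 919, 822, 666 and 719 on low-ratio milk and 298, 399 and 321 on high-ratio milk (1.20 ± 0.17 SE, adjusted p = 0.023). A tighter group was formed by Rgs12, Pxdc1 and Atic. Rgs12, which shortens G-protein signalling, had 985, 1138, 1319 and 1267 normalized counts on low-ratio milk, against 545, 629.6 and 623 on high-ratio milk (0.97 ± 0.14 SE, adjusted p = 0.023). Pxdc1 had 2414, 2417, 2486 and 2758 on low-ratio milk and 1553, 1660 and 1665 on high-ratio milk (0.63 ± 0.09 SE, adjusted p = 0.0256). Atic, which completes the synthesis of the purine inosine monophosphate, had 954, 865, 1191 and 1172 on low-ratio milk and 548, 496 and 574 on high-ratio milk (0.94 ± 0.15 SE, adjusted p = 0.0317). In all 3 the lowest low-ratio library stood clear of the highest high-ratio one. On GRCm38, Gcc2 (ENSMUSG00000038039) spans 58255497 to 58305599 of chromosome 10 (plus strand), Slc7a5 (ENSMUSG00000040010) spans 121881150 to 121907694 of chromosome 8 (minus strand), and Vav2 (ENSMUSG00000009621) spans 27262104 to 27427033 of chromosome 2 (minus strand).

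The leading lower genes had log2 fold changes close to −1 and came from many cell functions. Tceal9, which encodes a small nuclear protein of the transcription elongation factor A-like family, had 3342, 3396, 3060 and 3316 normalized counts on low-ratio milk, against 7174, 7170 and 5819 on high-ratio milk. The low-ratio libraries lay within a narrow band, and 1019 was the lowest of the high-ratio libraries. The log2 fold change was −1.03 ± 0.10 (SE, adjusted p = 0.0152). Ube2w, a ubiquitin-conjugating enzyme that modifies protein N-termini, had 1155, 992, 996 and 994 on low-ratio milk, against 2004, 2142 and 1933 on high-ratio milk (−0.97 ± 0.11 SE, adjusted p = 0.0188). Dcun1d1, which promotes the attachment of NEDD8 to cullins, had 650.5, 669, 581 and 747 on low-ratio milk and 1489, 1323 and 1442 on high-ratio milk (−1.10 ± 0.12 SE, adjusted p = 0.0204). Both act in the attachment of ubiquitin or its relatives, and in both the groups lay far apart, with 1019 the lowest high-ratio library for Ube2w and the middle one for Dcun1d1. Ergic2, of the ER-to-Golgi intermediate compartment, had 1101, 1161, 1216 and 1387 on low-ratio milk and 2762, 2251 and 2324 on high-ratio milk (−1.01 ± 0.12 SE, adjusted p = 0.0204). Dynlt3, a light chain of the dynein motor, had 1381, 1337, 1237 and 1435 on low-ratio milk and 2887, 3204 and 2318 on high-ratio milk (−1.05 ± 0.13 SE, adjusted p = 0.0204). Calm2, one of the genes for the calcium sensor calmodulin, had 7050, 7352, 6332 and 7278 on low-ratio milk and 16716, 15550 and 11726 on high-ratio milk (−1.05 ± 0.13 SE, adjusted p = 0.0204). In Dynlt3 and Calm2 the high-ratio library nearest the low-ratio ones was 1019. Zfp948, a zinc finger gene, had 674, 676, 683 and 724 on low-ratio milk and 1632, 1373 and 1226 on high-ratio milk (−1.02 ± 0.13 SE, adjusted p = 0.0204). With the trend on GC content and length removed, the log2 fold changes were −0.57 for Tceal9, −0.48 for Ube2w, −0.59 for Dcun1d1, −0.59 for Ergic2, −0.54 for Dynlt3, −0.74 for Calm2 and −0.71 for Zfp948. Tceal9 (ENSMUSG00000042712) spans 136245079 to 136247139 of chromosome X (plus strand), Ube2w (ENSMUSG00000025939) spans 16540790 to 16619489 of chromosome 1 (minus strand), and Dcun1d1 (ENSMUSG00000027708) spans 35892105 to 35937445 of chromosome 3 (minus strand), on GRCm38.

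Of the 13 protein-coding genes of the mitochondrial genome, 10 fell and 0 rose, and all 13 had negative log2 fold changes (median −1.01, against 0.04 over all genes tested). The 10 stand beside a background of 2.35% of genes lower. mt-Cytb, the cytochrome b of complex III, had 152012, 187055, 157924 and 155034 normalized counts on low-ratio milk, against 430696, 401018 and 311668 on high-ratio milk (−1.22 ± 0.13 SE, adjusted p = 0.0186). mt-Co1, the catalytic subunit of complex IV, had 268538, 319549, 306585 and 279811 on low-ratio milk, against 558452, 582693 and 436496 on high-ratio milk (−0.83 ± 0.12 SE, adjusted p = 0.023). In both, 1019 was the lowest high-ratio library and lay well above every low-ratio one. The complex I subunits mt-Nd4 (−0.94 ± 0.13 SE), mt-Nd4l (−1.05 ± 0.13 SE), mt-Nd5 (−0.74 ± 0.11 SE) and mt-Nd6 (−1.34 ± 0.17 SE) fell as well, as did mt-Atp8 of the ATP synthase (−1.44 ± 0.18 SE). mt-Atp8, mt-Nd4l and, on the other strand, mt-Nd6 each overlap part of a neighbouring gene, where reads may be shared. The 3 genes that did not pass were mt-Co2 (45.7, 0, 588 and 559 on low-ratio milk and 892, 646 and 2517 on high-ratio milk, adjusted p = 0.27), mt-Co3 (3721, 3605, 3174 and 1478 on low-ratio milk and 19428, 3591 and 9428 on high-ratio milk, adjusted p = 0.129) and mt-Nd3 (611, 1596, 600.0 and 693 on low-ratio milk and 1572, 2335 and 1136 on high-ratio milk, adjusted p = 0.163). mt-Co2 and mt-Co3 were far lower than the other cytochrome oxidase subunit and erratic within groups, and near-identical nuclear copies of mitochondrial genes make such values uncertain.

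Together these 13 genes took 2.46%, 2.86%, 2.60% and 2.38% of normalized counts on low-ratio milk, against 5.94%, 5.56% and 4.36% on high-ratio milk. The groups did not overlap. The means were 2.58% ± 0.211 on low-ratio milk (SD, n = 4) and 5.28% ± 0.826 on high-ratio milk (SD, n = 3), and the two-sided exact permutation test gave p = 0.0571, the smallest that 35 splits of 4 against 3 libraries allow. The 2 mitochondrial rRNA genes, which are not on the list, lay in the same direction, with means of 0.138% ± 0.018 on low-ratio milk and 0.285% ± 0.112 on high-ratio milk (exact permutation p = 0.0571). Of the 13 genes, 0 to 2 passed in the fits without 1 library other than 1019, and 10 passed without 1019. None passed with the trend on GC content and length removed, where the median was −0.31; their median GC content was 37.1%. In bulk RNA, fewer mitochondrial transcripts per cell and fewer cells rich in them cannot be told apart. These are not the only possible readings, and the part of GC content and length in this difference was not tested.

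**Figure D2:**
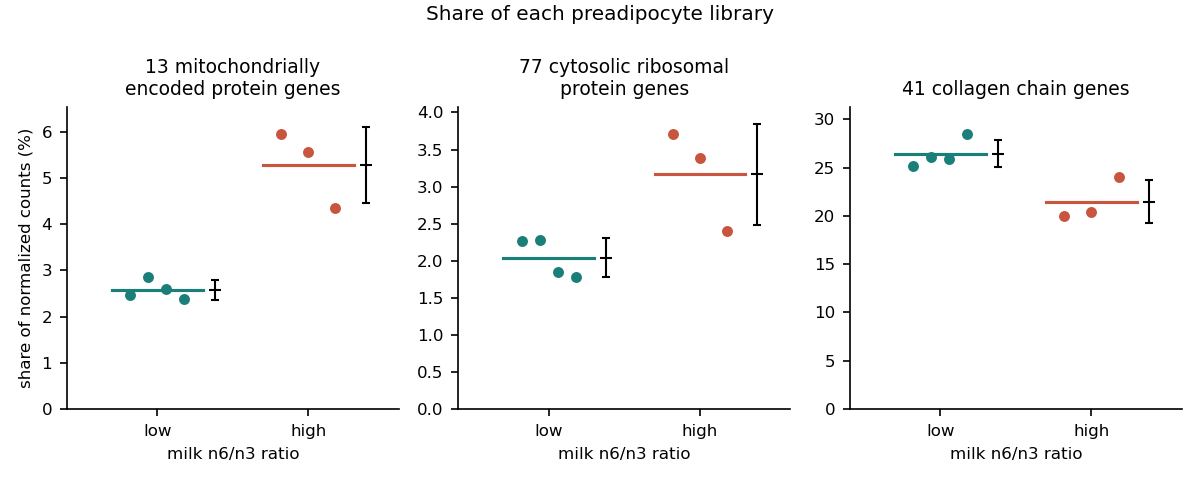
Share of normalized counts (%, axis from 0) taken by 13 mitochondrially encoded, 77 cytosolic ribosomal protein and 41 collagen chain genes in the 4 low-ratio (left) and 3 high-ratio (right) preadipocyte libraries; points are libraries, coloured bars means and black bars SDs. The first and second shares are lower and the third higher in every low-ratio library, and in all 3 panels library 1019 is the high-ratio library nearest the low-ratio ones.

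Nuclear genes of the respiratory chain fell in part. Among 37 nuclear genes of complex I, which passes electrons from NADH to ubiquinone, 6 fell (background 2.35%) and 0 rose, with a median of −0.36. Ndufb3, an accessory subunit, had 562, 596, 433 and 492 normalized counts on low-ratio milk, against 1337, 1182 and 859.5 on high-ratio milk (−1.10 ± 0.19 SE, adjusted p = 0.0347). The others were Ndufv2 (−0.96), which carries an iron-sulfur cluster, Ndufa1 (−0.69), Ndufa2 (−1.20), Ndufa4 (−1.30), whose product was later placed in complex IV, and Ndufb5 (−0.71). Of 42 nuclear genes of complexes II to V, 9 fell (background 2.35%) and 0 rose (median −0.16). They included 3 subunits of complex III, Uqcrb (−1.27 ± 0.19 SE, adjusted p = 0.0256), Uqcrh (−1.31 ± 0.27 SE, adjusted p = 0.0441) and Uqcr10 (−0.74 ± 0.15 SE, adjusted p = 0.0424). Uqcrb had 1107, 1202, 931 and 1150 normalized counts on low-ratio milk, against 3518, 2602 and 1990 on high-ratio milk, where 1019 was lowest. Cox7b (−1.24) and Cox7a2 (−1.04) of complex IV and Atp5l (−1.05) of the ATP synthase also fell. Of both lists, 0 passed in each fit that left out 1 library other than 1019, 15 and 12 genes passed without 1019, and 0 passed with the trend removed, where the medians were −0.28 and −0.08.

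The machinery that expresses the mitochondrial genome showed fewer calls. Of 78 genes for proteins of the mitochondrial ribosome, 5 fell and 0 rose (median −0.22), beside 2.35% lower over all genes. Mrpl42 led them with 737, 858, 679 and 849 normalized counts on low-ratio milk, against 1796, 1668 and 1466 on high-ratio milk (−1.07 ± 0.13 SE, adjusted p = 0.0204). The rest were Mrpl47 (−1.43), Mrps33 (−1.28), Mrpl33 (−1.18) and Mrpl32 (−0.84). Of 18 genes for upkeep and transcription of mitochondrial DNA, 2 fell. Slirp, which stabilizes mitochondrial mRNAs, had 372, 291, 220.4 and 332 on low-ratio milk, against 1006, 845 and 515 on high-ratio milk (−1.34 ± 0.27 SE, adjusted p = 0.0424). Ssbp1, the single-strand binding protein of mitochondrial DNA replication, had 435, 418, 371 and 419 on low-ratio milk, against 1036, 834 and 596 on high-ratio milk (−0.97 ± 0.19 SE, adjusted p = 0.0434). In both genes the values of the low-ratio libraries were below the lowest high-ratio value, that of 1019.

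Genes of protein synthesis fell in part as well. Among the 77 genes for proteins of the cytosolic ribosome, 26 fell (background 2.35%), 0 rose and 42 had every low-ratio library below every high-ratio one (background 11.0%). Their median log2 fold change was −0.62. Rps3a1 had 19950, 25471, 18880 and 19328 normalized counts on low-ratio milk, against 53064, 48054 and 33332 on high-ratio milk (−1.08 ± 0.17 SE, adjusted p = 0.0317). Rpl10a had 9507, 10479, 8395 and 8324 on low-ratio milk, against 19274, 18326 and 13167 on high-ratio milk (−0.87 ± 0.15 SE, adjusted p = 0.0347). Rps3a1 belongs to the small and Rpl10a to the large subunit, and ribosomal protein genes have many processed pseudogenes that can share reads. Rpl24 (−1.32), Rps24 (−1.10), Rps12 (−0.96) and Rpl21 (−0.81) also fell. The 77 genes took 2.27%, 2.27%, 1.85% and 1.78% of normalized counts on low-ratio milk, against 3.70%, 3.39% and 2.40% on high-ratio milk (two-sided exact permutation p = 0.0571). The gap between the highest low-ratio and the lowest high-ratio library was small. Of the 26 genes, 0 passed in any fit without 1 library other than 1019, 44 of the 77 passed without 1019, and 0 passed with the trend removed, although the median then still stood at −0.57.

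Of 36 genes for translation initiation and elongation factors, 5 fell (background 2.35%) and 0 rose, while the list's median of 0.08 lay near that of all genes. Eif3e, a subunit of the eIF3 scaffold, had 2860, 3559, 2667 and 2724 normalized counts on low-ratio milk, against 8866, 7441 and 4936 on high-ratio milk (−1.23 ± 0.20 SE, adjusted p = 0.0317). Eif3m of the same complex (−0.94 ± 0.18 SE, adjusted p = 0.0413), the RNA helicase gene Eif4a2 (−0.67 ± 0.14 SE, adjusted p = 0.0468) and Tpt1, an abundant translationally controlled protein (−1.10 ± 0.19 SE, adjusted p = 0.0347), fell too. Eif2s2, the beta subunit of the factor that brings the initiator tRNA, had a smaller and tighter difference, 2262, 2323, 2248 and 2369 on low-ratio milk, against 3202, 3198 and 3022 on high-ratio milk (−0.45 ± 0.08 SE, adjusted p = 0.036).

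Protein turnover and folding genes showed the same direction among their calls. Of 38 proteasome subunit genes, 5 fell (background 2.35%) and 0 rose (median −0.23). Psmc6, an ATPase of the regulatory particle, had 1614, 1358, 1150 and 1445 normalized counts on low-ratio milk, against 4658, 3323 and 2638 on high-ratio milk (−1.32 ± 0.20 SE, adjusted p = 0.0256). The other 4, Psma4 (−0.96), Psma1 (−0.90), Psmb1 (−0.92) and Psmb7 (−0.79), belong to the core particle. Among 16 heat shock genes, 2 fell (background 2.35%) and 0 rose (median −0.04). Hspe1, the co-chaperonin of mitochondria, had 1245, 1111, 1019 and 1020 on low-ratio milk, against 2471, 2029 and 1588 on high-ratio milk (−0.87 ± 0.16 SE, adjusted p = 0.0365). Hsp90aa1, the inducible cytosolic HSP90, had 10534, 14640, 16463 and 12480 on low-ratio milk and 24267, 22923 and 19514 on high-ratio milk (−0.73 ± 0.16 SE, adjusted p = 0.0481). In each of these 7 genes the lowest high-ratio value was that of 1019. Without 1 library other than 1019, 0 of the proteasome genes passed.

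The shuttles that carry cytosolic NADH electrons into mitochondria split. The glycerol phosphate shuttle runs through Gpd2, and the malate-aspartate shuttle through malate dehydrogenases, aminotransferases and carriers. Of 11 tested genes of both, Gpd2 rose and Mdh1 fell (background 0.535% higher and 2.35% lower). Mdh1, the cytosolic malate dehydrogenase, had 1425, 1541, 1273 and 1510 normalized counts on low-ratio milk, against 2938, 2822 and 2274 on high-ratio milk (−0.89 ± 0.12 SE, adjusted p = 0.023). Slc25a12, the mitochondrial aspartate-glutamate carrier, singled out after its values were seen, had 1054, 899.9, 971 and 984 on low-ratio milk, against 530.0, 569 and 258 on high-ratio milk, just short of the threshold (1.19 ± 0.26 SE, adjusted p = 0.0505). The groups of both did not overlap. Gpd1, the cytosolic partner of Gpd2 in the shuttle and likewise singled out afterwards, had 54.8, 46.9, 52.8 and 40.2 on low-ratio milk and 43.7, 48.5 and 36.8 on high-ratio milk (adjusted p = 0.742), with overlapping groups. Among 21 genes of pyruvate entry and the citric acid cycle, 2 fell (background 2.35%) and 0 rose (median 0.10). Mpc1, a subunit of the pyruvate carrier, had 598, 425, 344 and 488 on low-ratio milk, against 1232, 868 and 826 on high-ratio milk (−1.08 ± 0.22 SE, adjusted p = 0.0441). Sucla2, the ADP-forming subunit of succinyl-CoA synthetase, had 1238, 1035, 838 and 944 on low-ratio milk and 2370, 1557 and 2081 on high-ratio milk (−0.97 ± 0.18 SE, adjusted p = 0.0365). None of 21 genes of glycolysis and lactate transport passed, 18 of them had positive log2 fold changes (background 8600 of 15893 genes), and the median was 0.31. The phosphofructokinase genes Pfkp (0.35 ± 0.10 SE, adjusted p = 0.0878) and Pfkm (0.61 ± 0.19 SE, adjusted p = 0.115) had the smallest p among them.

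RefSeq gives Gpd2 a pair of start sites on GRCm38.p6, and the 250 bases before each are shown because this gene is one of the 2 protein-coding genes that passed in 5 of the 7 fits without 1 library and the deposited values, 1 per gene, cannot tell its starts apart. Capitals mark CpG dinucleotides.
Gpd2 first start, chr2:57237428-57237677, plus strand: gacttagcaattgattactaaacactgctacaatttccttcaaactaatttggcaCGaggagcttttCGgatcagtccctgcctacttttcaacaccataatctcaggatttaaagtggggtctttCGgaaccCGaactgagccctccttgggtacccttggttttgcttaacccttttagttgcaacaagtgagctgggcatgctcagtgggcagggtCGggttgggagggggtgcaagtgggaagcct
Gpd2 second start, chr2:57238132-57238381, plus strand: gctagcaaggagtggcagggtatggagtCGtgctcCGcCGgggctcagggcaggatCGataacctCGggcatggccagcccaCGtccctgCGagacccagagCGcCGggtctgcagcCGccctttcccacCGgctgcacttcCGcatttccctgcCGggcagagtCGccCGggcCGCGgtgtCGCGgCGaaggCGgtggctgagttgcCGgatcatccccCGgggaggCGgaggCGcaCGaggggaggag
The first window holds 5 CpG at a GC content of 48.8% and the second 26 CpG at 71.2%, against medians of 6 CpG and 52.4% over the 32851 windows of 250 bases before RefSeq starts. The table of promoter windows was matched by symbol.

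Lipid genes gave few calls. Of 19 tested genes of fatty acid synthesis, desaturation and elongation, 1 rose (background 0.535%) and 0 fell. Of the 19, 17 had positive log2 fold changes (background 8600 of 15893 genes), and the median was 0.26. Fads2, the desaturase that acts first on both linoleic and alpha-linolenic acid, had 2187, 2204, 2194 and 2543 normalized counts on low-ratio milk, against 1313, 1674 and 1612 on high-ratio milk. Its low-ratio libraries 108, 114 and 119 were nearly equal and 133 was higher (0.58 ± 0.12 SE, adjusted p = 0.0441). None of 25 genes of sterol synthesis passed, with 21 positive log2 fold changes (background 8600 of 15893 genes) and a median of 0.30. Srebf2, the transcription factor of the pathway, had 3507, 2690, 3851 and 3524 on low-ratio milk and 2413, 2600 and 2927 on high-ratio milk, with overlapping groups (adjusted p = 0.187).

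Lipid oxidation, the process in the series title, had 0 calls in 24 genes of mitochondrial beta-oxidation and the carnitine shuttle (median 0.15) and 0 in 16 genes of the peroxisomal pathway (median 0.09). Cpt1a, which commits fatty acids to the carnitine shuttle, had 3078, 3366, 2666 and 2069 normalized counts on low-ratio milk, against 1980, 1703 and 2752 on high-ratio milk, with overlapping groups (adjusted p = 0.309). Of the 24 genes, 5 had every low-ratio library above every high-ratio one (background 10.1%) and 3 had the reverse (background 11.0%). Decr1, an auxiliary enzyme for unsaturated fatty acids, had 962, 1051, 784 and 1085 on low-ratio milk, against 1596, 1359 and 1217 on high-ratio milk (adjusted p = 0.098). Etfa, which passes electrons from acyl-CoA dehydrogenases to the respiratory chain, had 2165, 1977, 1626 and 1783 on low-ratio milk and 2511, 2996 and 2173 on high-ratio milk (adjusted p = 0.128). In peroxisomes Crot (−0.51, adjusted p = 0.0847) and Scp2 (−0.36, adjusted p = 0.181) had the smallest p. Ppargc1a, the coactivator of mitochondrial biogenesis, was close to the detection limit at 6.97, 5.01, 15.7 and 7.27 on low-ratio milk, against 7.0, 15.5 and 25.3 on high-ratio milk (adjusted p = 0.511).

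Among 23 genes for PPARs, their coactivators and targets of lipid use, 1 fell (background 2.35%) and 0 rose. This was Cd36, a fatty acid translocase, with 4079, 4400, 4475 and 3533 normalized counts on low-ratio milk, against 8075, 7406 and 6484 on high-ratio milk (−0.83 ± 0.12 SE, adjusted p = 0.023). All 4 low-ratio libraries were below the lowest high-ratio library, 1019. None of 24 genes of fatty acid uptake, storage and lipolysis passed (median −0.03). Fabp5, a fatty acid binding protein, had 552, 456, 516 and 450.2 on low-ratio milk and 770.5, 689.8 and 668 on high-ratio milk (adjusted p = 0.0737), and G0s2, an inhibitor of the lipase ATGL, had 508, 349, 199.7 and 401 on low-ratio milk and 1021, 844 and 557 on high-ratio milk (adjusted p = 0.0882). In both genes every low-ratio value was below every high-ratio value without passing the test.

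Amino acid supply genes had Slc7a5 as their 1 call, and 12 of 25 tested members of the list of amino acid transporters and ATF4 targets had every low-ratio library above every high-ratio library (background 10.1%), with 0 in the other direction. The list's median was 0.35. Of 22 genes of the unfolded protein response, Cdnf, a secreted protein of the endoplasmic reticulum, rose, with 25.0, 39.8, 87.3 and 50.2 normalized counts on low-ratio milk, against 8.76, 8.55 and 9.99 on high-ratio milk (2.21 ± 0.46 SE, adjusted p = 0.0444). The high-ratio libraries lay near the filter's mean of 10. Of 18 genes of RNA polymerase III, which makes tRNAs and 5S rRNA, 2 rose (background 0.535%, as for the 2 lists before it). Polr3g, a subunit of the form found in stem cells, had 36.7, 42.8, 50.01 and 19.6 on low-ratio milk, against 3.62, 5.79 and 6.96 on high-ratio milk (2.53 ± 0.47 SE, adjusted p = 0.0365). Polr3c had 534, 568, 512 and 422 on low-ratio milk and 274, 305 and 299.9 on high-ratio milk (0.79 ± 0.15 SE, adjusted p = 0.0424). Library 133 was the lowest low-ratio library for Polr3g and Polr3c.

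Growth and division genes gave few calls, beside a background of 0.535% of all genes higher and 2.35% lower. In 28 genes of replication licensing and the fork, Mcm2 and Donson rose and Orc4, a subunit of the origin recognition complex, fell, with 463, 384, 318 and 266 normalized counts on low-ratio milk, against 905, 892 and 757 on high-ratio milk (−1.27 ± 0.20 SE, adjusted p = 0.0316). In 33 genes of the cell cycle and mitosis, 1 rose, Ccnd3, a D-type cyclin of G1, with 6321, 6633, 8207 and 6598 on low-ratio milk, against 4888, 4646 and 4397 on high-ratio milk (0.57 ± 0.11 SE, adjusted p = 0.0405), and the median of 0.03 was near that of all genes. In 25 genes of insulin and IGF signalling, 1 rose, Akt1, the kinase downstream of PI3-kinase, with 7576, 7219, 8111 and 7533 on low-ratio milk and 5762, 6092 and 5738 on high-ratio milk (0.38 ± 0.08 SE, adjusted p = 0.0497). Akt1 passed in none of the 7 fits without 1 library, including that without 1019. Hif3a, a hypoxia-inducible factor, was the 1 call among 18 hypoxia genes, with 58.2, 43.8, 49.7 and 48.8 on low-ratio milk, against 17.9, 10.1 and 6.8 on high-ratio milk (2.11 ± 0.39 SE, adjusted p = 0.036). Fbxw7 was the 1 call among 15 genes of its ligase and substrates, and Myo5b among 14 of the recycling endosome. Of 18 tested histone genes, the variant H3f3a fell, with 7126, 7084, 5112 and 6261 on low-ratio milk and 11408, 11033 and 8873 on high-ratio milk (−0.71 ± 0.14 SE, adjusted p = 0.0441); H3f3b encodes the same protein and pseudogenes exist, so its reads may be shared. Among 21 imprinted genes of growth, 2 noncoding RNAs fell. Meg3 had 8852, 8225, 7532 and 7211 on low-ratio milk, against 13429, 10416 and 11564 on high-ratio milk (−0.57 ± 0.12 SE, adjusted p = 0.0441). Kcnq1ot1, which is transcribed antisense within Kcnq1, had 640.0, 642, 456 and 578 on low-ratio milk and 1074, 1278 and 838 on high-ratio milk (−0.87 ± 0.19 SE, adjusted p = 0.0481), and no strand setting is given that would tell the pair apart.

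Ccl7 and Ccl2, chemokines that attract monocytes, fell, while their list was split in direction. Of 22 stromal chemokines and cytokines, 3 fell (background 2.35%) and 0 rose. The list had 11 positive and 11 negative log2 fold changes and a median of −0.001, and 7 members had every low-ratio library below every high-ratio one (background 11.0%). Ccl7 had 2879, 4228, 3335 and 3002 normalized counts on low-ratio milk, against 6967, 7752 and 7104 on high-ratio milk (−1.13 ± 0.14 SE, adjusted p = 0.0204). Ccl2, its neighbour in the chemokine cluster and, like it, a ligand of the receptor CCR2, had 6444, 8280, 7570 and 5510 on low-ratio milk, against 12647, 12195 and 11192 on high-ratio milk (−0.80 ± 0.14 SE, adjusted p = 0.0347). In both, 114 was the highest low-ratio library and still fell short of the lowest high-ratio one. Il6, the cytokine interleukin 6, had 3752, 5263, 4289 and 3696 on low-ratio milk and 9307, 9169 and 6782 on high-ratio milk, with 1019 lowest on high-ratio milk (−0.99 ± 0.16 SE, adjusted p = 0.0331). With the trend on GC content and length removed, the list's median was 0.06. The log2 fold changes were then −0.80 for Ccl7, −0.57 for Ccl2 and −0.47 for Il6. Cxcl10, an interferon-induced chemokine singled out after its values were seen, had 2260, 2884, 3203 and 2477 on low-ratio milk, against 1964, 2051 and 1757 on high-ratio milk, not overlapping in the opposite direction and short of the threshold (0.48 ± 0.14 SE, adjusted p = 0.0908). None of 29 genes of the interferon response and antigen presentation passed (median 0.03); H2-K1 had 6181, 6346, 5211 and 5945 on low-ratio milk and 7227, 7490 and 6702 on high-ratio milk (adjusted p = 0.155) and Ifit3 159.6, 208, 131 and 207 on low-ratio milk and 272, 248 and 268 on high-ratio milk (adjusted p = 0.156).

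The promoter of Il6 is shown for the binding motifs of inflammatory transcription factors that it is known for. Capitals mark, from the 5′ end, an AP-1 motif, a C/EBP motif and an NF-kB motif in the 250 bases before the RefSeq start on GRCm38.p6.
Il6, chr5:30012864-30013113, plus strand: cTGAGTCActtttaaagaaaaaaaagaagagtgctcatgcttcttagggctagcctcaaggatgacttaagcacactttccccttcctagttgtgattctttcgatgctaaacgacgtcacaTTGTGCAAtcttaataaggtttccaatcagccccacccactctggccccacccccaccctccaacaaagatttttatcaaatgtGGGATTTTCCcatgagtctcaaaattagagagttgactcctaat
Both strands were searched, with TGANTCA for AP-1, TTGCNCAA for C/EBP and the consensus of NF-kB, and no match overlapped another motif. The AP-1 letters read the same on both strands, and the C/EBP match is on the minus strand. They begin 249, 128 and 44 bases before the start. Of all 32851 such windows, 6.75% hold the AP-1 letters, 2.61% the C/EBP letters and 0.356% the NF-kB consensus. Ccl7 and Ccl2 are named only. The matches describe the sequence, and the deposited values do not measure binding.

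Genes that make or break down lipid mediators gave 1 call each way among 23 tested (background 0.535% higher and 2.35% lower). Hpgd, which inactivates prostaglandins, had 2488, 2526, 1509 and 2250 normalized counts on low-ratio milk, against 4431, 4281 and 3886 on high-ratio milk, with 119 the lowest library (−0.96 ± 0.18 SE, adjusted p = 0.0365). Ephx1, the microsomal epoxide hydrolase, had 2699, 2743, 2931 and 2696 on low-ratio milk, against 1371, 1960 and 1813 on high-ratio milk (0.71 ± 0.13 SE, adjusted p = 0.0365). Of 31 antioxidant genes, 5 fell (background 2.35%) and 0 rose, around a median of 0.08 close to that of all genes. Mgst1, a microsomal glutathione transferase, had 4156, 4333, 3226 and 3752 on low-ratio milk, against 12765, 10048 and 6523 on high-ratio milk (−1.29 ± 0.21 SE, adjusted p = 0.0333). Gpx8 (−0.93) and Prdx4 (−0.98), peroxidases of the endoplasmic reticulum, Prdx1 (−0.96) and Mgst3 (−0.70) were the others. In Mgst1, Gpx8, Prdx1 and Prdx4 the lowest high-ratio value was that of 1019, and in Mgst3 it was that of 1015. None of 15 glutathione S-transferase genes passed; Gstm5 (−0.60, adjusted p = 0.089) and Gstt3 (0.45, adjusted p = 0.152) had the smallest p.

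In the extracellular matrix, several non-collagen proteins fell, while collagen chains took a larger share of every low-ratio library. Of 12 tested small leucine-rich proteoglycans, which bind and space collagen fibrils, 3 fell (background 2.35%) and 0 rose (median −0.39). Aspn, asporin, had 43050, 39683, 30597 and 41452 normalized counts on low-ratio milk, against 108326, 87643 and 69314 on high-ratio milk (−1.18 ± 0.17 SE, adjusted p = 0.023). Ogn, osteoglycin, had 15489, 19321, 8913 and 17534 on low-ratio milk and 49349, 45262 and 35596 on high-ratio milk, with 119 lowest of all (−1.55 ± 0.25 SE, adjusted p = 0.0332). Lum, lumican, had 40379, 48695, 39255 and 51192 on low-ratio milk, against 77991, 76522 and 74309 on high-ratio milk (−0.77 ± 0.11 SE, adjusted p = 0.023). The abundant member Dcn, decorin, had 152078, 195928, 178007 and 194759 on low-ratio milk and 165916, 207149 and 195070 on high-ratio milk, with overlapping groups (adjusted p = 0.757). Of 31 matricellular and adhesive glycoproteins 1 fell (background 2.35%), Postn, periostin, with 320000, 344964, 292895 and 354312 on low-ratio milk, against 628626, 563405 and 520029 on high-ratio milk (−0.80 ± 0.10 SE, adjusted p = 0.0204). Of the 31, 26 had positive log2 fold changes (median 0.19, background 8600 of 15893 genes). Aspn and Ogn both lie on chromosome 13, and the median GC content of the proteoglycan list was 42.2%. With the trend on GC content and length removed, its median was −0.19 and the log2 fold changes were −0.48 for Aspn, −0.98 for Ogn, −0.52 for Lum and −0.56 for Postn.

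None of 35 tested collagen chain genes passed (median 0.20), but as a sum the 41 collagen genes in the table took 25.2%, 26.1%, 25.9% and 28.4% of normalized counts on low-ratio milk, against 19.97%, 20.4% and 24.0% on high-ratio milk. The groups did not overlap (26.4% ± 1.40 on low-ratio milk, SD, n = 4, and 21.5% ± 2.21 on high-ratio milk, SD, n = 3; two-sided exact permutation p = 0.0571, the smallest possible). Col1a1 and Col1a2, the chains of type I collagen, and Col3a1 of type III make up most of this. Col1a1 had 2346427, 2664542, 2774184 and 3155069 normalized counts on low-ratio milk, against 1836636, 1827624 and 2254557 on high-ratio milk (0.47 ± 0.12 SE, adjusted p = 0.0753). Col1a2 had 1444151, 1630990, 1586738 and 1838510 on low-ratio milk and 1058938, 1148223 and 1391900 on high-ratio milk (0.44 ± 0.12 SE, adjusted p = 0.0839), and Col3a1 3491201, 3869723, 3574951 and 4171403 on low-ratio milk and 2897942, 3139069 and 3480357 on high-ratio milk (0.25 ± 0.10 SE, adjusted p = 0.189). Without the 50 genes of highest mean, the remaining collagens took 1.12% ± 0.155 on low-ratio milk and 0.982% ± 0.209 on high-ratio milk, with overlapping groups (exact permutation p = 0.286). In 25 genes of matrix turnover and crosslinking 0 passed, 8 had every low-ratio library above every high-ratio one (background 10.1%), and the median was 0.23. Pcolce, which speeds the trimming of procollagen, had 57670, 59436, 62840 and 66478 on low-ratio milk and 48442, 46516 and 52118 on high-ratio milk (adjusted p = 0.0768), and the gelatinase Mmp2 45856, 57718, 57776 and 50688 on low-ratio milk and 38561, 42123 and 40330 on high-ratio milk (adjusted p = 0.0805). None of 30 TGF-beta and BMP pathway genes passed, 26 had positive log2 fold changes (background 8600 of 15893 genes), and the median was 0.34. The receptor Tgfbr2 had 20128, 21320, 22383 and 21195 on low-ratio milk and 12389, 15050 and 18103 on high-ratio milk (adjusted p = 0.0697) and the ligand Tgfb2 1246, 1783, 1238 and 929.7 on low-ratio milk and 644, 685 and 820.2 on high-ratio milk (adjusted p = 0.0705).

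**Figure D3:**
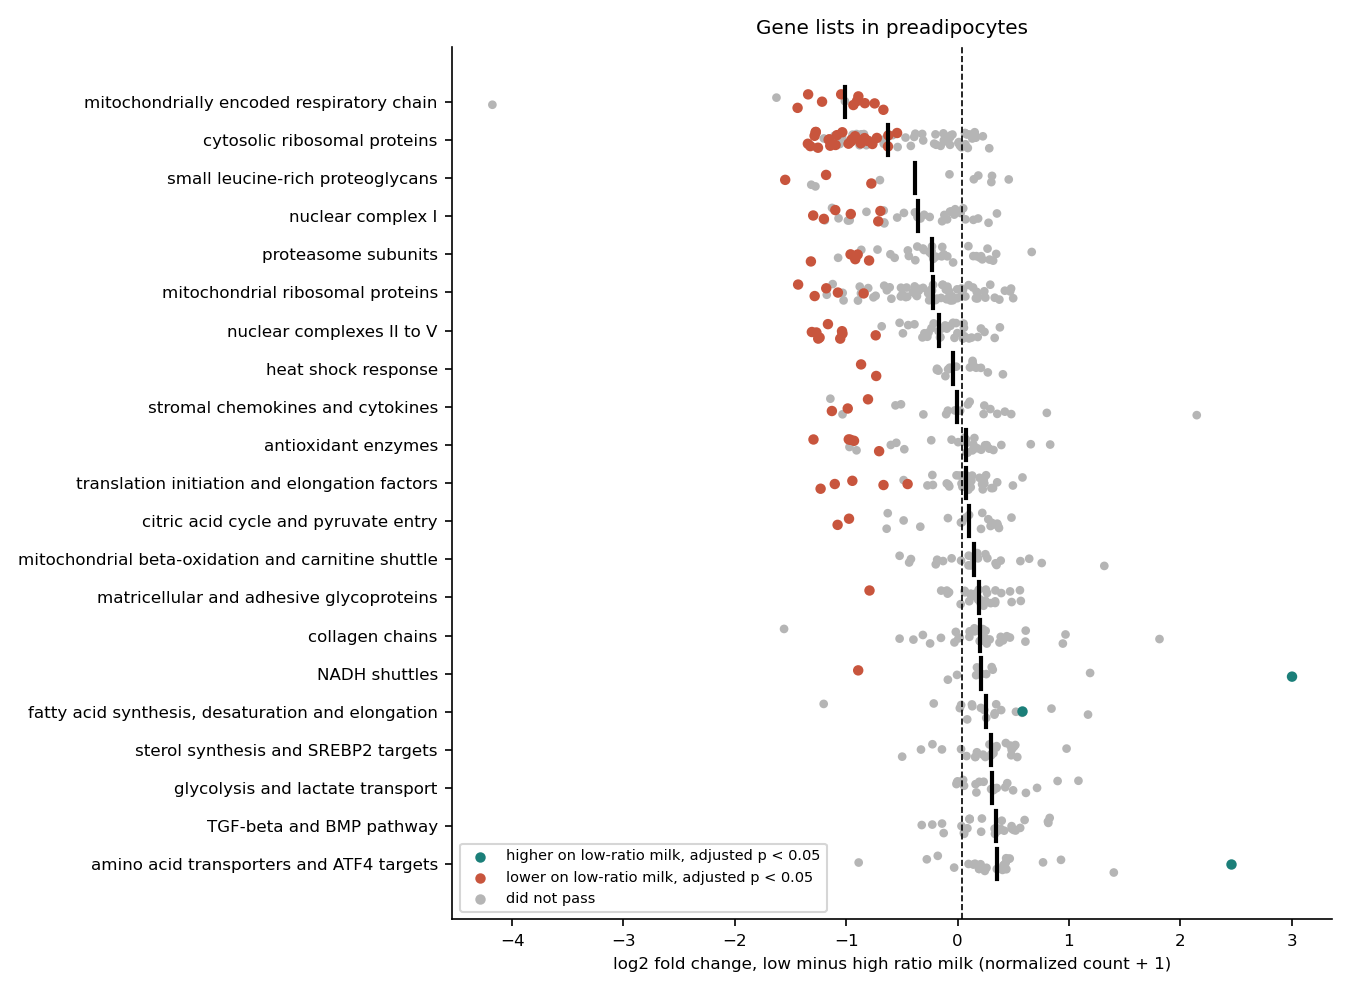
Log2 fold change, low minus high ratio milk, on log2(normalized count + 1), of every tested member of 21 gene lists in preadipocytes; coloured points passed an adjusted p of 0.05, vertical bars are list medians and the dashed line is the median of all genes, 0.04. The mitochondrially encoded list has the lowest median, −1.01, and the list of amino acid transporters and ATF4 targets the highest of those shown, 0.35.

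Genes of precursor identity and commitment gave 1 call. None of 30 adipogenic transcription factors passed (median 0.24); Stat5b, which promotes adipogenesis, had 2083, 1979, 2022 and 2017 normalized counts on low-ratio milk, against 1314, 1539 and 1616 on high-ratio milk (adjusted p = 0.0556), and Cebpa, a late driver of fat cell maturation, had 762, 857, 877 and 791 on low-ratio milk and 1273, 1051 and 1065 on high-ratio milk (adjusted p = 0.0808). The groups of each did not overlap and lay in opposite directions. Among 15 surface genes used to sort precursors 0 passed, and Ly6a, the SCA1 antigen, had 18056, 22891, 16669 and 20948 on low-ratio milk, against 26012, 31443 and 25191 on high-ratio milk (adjusted p = 0.0825). Of 16 interstitial progenitor markers 0 passed, with Fn1 at 0.39 (adjusted p = 0.12) and Bmp7 at 0.40 (adjusted p = 0.139). Of 19 markers of committed preadipocytes and adipogenesis-regulating cells 1 fell (background 2.35%), the Cd36 described above. The thermogenic list (10 genes, with Ebf2 at 0.17, adjusted p = 0.422) had 0 calls, and Nr2f2, the nuclear receptor COUP-TFII, had 583, 689.8, 909 and 441 on low-ratio milk and 759, 576 and 558 on high-ratio milk (adjusted p = 0.973).

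Other signalling lists had 0 calls each. In 28 Wnt genes the median was 0.12, with Dkk3 at 0.42 (adjusted p = 0.0573) and Rspo1 at −1.06 (adjusted p = 0.149). In 16 Notch genes it was 0.28, with the ligand Jag2 at 1.89 (adjusted p = 0.0578) and the inhibitor Numb at 0.50 (adjusted p = 0.134). The 17 clock genes had a median of 0.27, with Tef at 0.34 (adjusted p = 0.174) and Cry2 at 0.39 (adjusted p = 0.188). In 17 retinoid genes the median was 0.10, with Rarres2 at −0.39 (adjusted p = 0.112). The 30 immediate early genes, which also respond to the handling of tissue, had a median of 0.20, with Ier3 at 0.29 (adjusted p = 0.17) and Atf3 at 0.39 (adjusted p = 0.191).

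Markers of other cell types were measured beside these results, against a background of 0.535% of all genes higher and 2.35% lower. Summed over 10 macrophage and monocyte genes they gave 490.4 to 1021 normalized counts in the low-ratio libraries and 836 to 1052 in the high-ratio libraries, of which 1 fell, Ptpn6, a phosphatase of blood cells singled out for that reason (9.42, 1.72, 11.7 and 1.68 on low-ratio milk and 28.0, 140.3 and 112 on high-ratio milk, adjusted p = 0.0468). Lyz2 (221, 236, 108 and 88.2 on low-ratio milk and 208, 279 and 201 on high-ratio milk, adjusted p = 0.383) and Csf1r (308, 183, 109.8 and 101 on low-ratio milk and 154, 111 and 129.7 on high-ratio milk, adjusted p = 0.711) overlapped between milks. Erythroid genes summed to 1185 to 2287 on low-ratio milk and 1996 to 7682 on high-ratio milk, where 1017 stood apart. The globin genes Hbb-bs (1210, 1035, 624 and 612 on low-ratio milk and 1111, 4044 and 971 on high-ratio milk) and Hba-a2 (865, 659, 578 and 436 on low-ratio milk and 916, 2821 and 735 on high-ratio milk) did not pass (adjusted p = 0.281 and 0.225); their near-identical copies can share reads. Of 8 endothelial genes, 6 had negative and 2 positive log2 fold changes (median −0.14) and their sum was 9198 to 13319 on low-ratio milk and 7038 to 9524 on high-ratio milk. Of them 1 rose, Tek, the TIE2 receptor, with 6497, 8353, 9490 and 8431 on low-ratio milk, against 5005, 5416 and 5507 on high-ratio milk (0.61 ± 0.13 SE, adjusted p = 0.0469), while Cdh5, the other positive one, overlapped (998, 1124, 1374 and 759.5 on low-ratio milk and 499, 1255 and 1115 on high-ratio milk, adjusted p = 0.718). Of 5 tested Schwann cell genes 1 rose, Pmp22, with 8841, 9326, 10079 and 9448 on low-ratio milk and 6638, 7506 and 7262 on high-ratio milk (0.40 ± 0.09 SE, adjusted p = 0.0497), while Mbp had 549, 564, 826 and 469.8 on low-ratio milk and 523, 236 and 595 on high-ratio milk (adjusted p = 0.418) and the defining Sox10 lay below a mean of 10. Mural genes summed to 8064 to 10768 on low-ratio milk and 8047 to 9521 on high-ratio milk with 0 calls, among them Abcc9 (adjusted p = 0.3) and Notch3 (adjusted p = 0.661). Lymphocyte genes summed to 15.2 to 44.0 on low-ratio milk and 49.1 to 52.8 on high-ratio milk, with 6 of 7 below a mean of 10 and Cd79a the 1 tested (adjusted p = 0.789). Skeletal muscle genes summed to 352 to 791 on low-ratio milk and 499.7 to 802 on high-ratio milk, with Pax7 and Myod1 below a mean of 10 and Des (adjusted p = 0.58) and Acta1 (adjusted p = 0.72) the most abundant of the 6 tested. Keratinocyte and mammary genes had Krt19 as their 1 tested member (adjusted p = 0.752), Krt5, Krt14 and Epcam being below that mean. Lymphatic markers summed to 96.4 to 154 on low-ratio milk and 87.5 to 122 on high-ratio milk, with Prox1 (adjusted p = 0.491) and Lyve1 (adjusted p = 0.112) the most abundant, and Msln and Wt1 of the mesothelium lay below a mean of 10. The fat cell markers Lipe (adjusted p = 0.519) and Plin1 (adjusted p = 0.952) did not pass. The part of other cells in the results above was not tested.

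Transcripts of the Y chromosome and of Xist were present in every library. Xist, transcribed from the inactive X of females, had 3158, 1812, 757 and 432 normalized counts on low-ratio milk, against 4041, 3309 and 5425 on high-ratio milk (adjusted p = 0.126). Ddx3y, on the Y chromosome, had 838, 1153, 1564 and 1766 on low-ratio milk and 1357, 2019 and 492 on high-ratio milk (adjusted p = 0.818). Every low-ratio library had less Xist than every high-ratio one, and 133 had the least. Of the other Y-linked genes, Kdm5d had 234, 295, 365 and 353 on low-ratio milk, against 162, 182 and 133 on high-ratio milk, with no overlap (log2 fold change 0.96, adjusted p = 0.0539). Uty (log2 fold change 0.37, adjusted p = 0.594) and Eif2s3y (log2 fold change −0.42, adjusted p = 0.625) overlapped between milks, so the Y-linked genes did not share 1 direction. These 5 genes were read after the values were seen, and none of them passed. On the X chromosome 27 of 526 tested genes fell and 2 rose, against a background of 2.35% lower over all chromosomes. Tceal9, Dynlt3, Ndufa1, Cox7b and Prdx4, named above, are X-linked. The part of sex in these values was not tested.

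Lower calls were more frequent among genes poor in GC. In the quintile of tested genes with the lowest transcript GC content (median 42.04%) 212 fell and 7 rose, with a median log2 fold change of −0.24, whereas in the quintile with the highest (58.1%) 10 fell and 21 rose, with a median of 0.13. The Spearman rank correlation between GC content and log2 fold change was 0.265 across 15883 genes, which share libraries and are not independent. By library, the median deviation of the lowest quintile from the mean of all 7 was −0.09, −0.08, −0.10 and −0.11 on low-ratio milk, against 0.21, 0.18 and 0.09 on high-ratio milk, so 1019 was again the high-ratio library nearest the others. The 373 lower genes had a median GC content of 43.4% and the 85 higher genes one of 52.8%. The part of GC content in the results above was not tested.

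The 12 genes past the threshold with that trend removed were Myo5b, Gpd2, Donson, Fbxw7 and Gcc2, described above, and 7 more that are named here because so few remained. Cep170, a centrosomal protein, had 3433, 3186, 3272 and 3072 normalized counts on low-ratio milk, against 2236, 2280 and 2244 on high-ratio milk (0.73 with the trend removed, adjusted p = 0.0279). Hnrnpr, an RNA-binding protein, had 1914, 2024, 1870 and 1786 on low-ratio milk and 1272, 1365 and 1228 on high-ratio milk (0.73, adjusted p = 0.0466). Mtmr1, a phosphoinositide phosphatase, had 663, 562, 527 and 518 on low-ratio milk and 389, 353 and 305 on high-ratio milk (1.02, adjusted p = 0.0466) and did not pass before the removal (adjusted p = 0.0526). The other 4 are processed pseudogenes that were present on one milk and listed at 0 on the other. Gm48499 had 0 in each low-ratio library, against 126, 124 and 117 on high-ratio milk, and Gm10259 likewise had 0 in each low-ratio library, against 77.4, 96.2 and 121 on high-ratio milk. Gm3851 was listed at 51.5, 57.0, 115 and 72.4 on low-ratio milk and at 0 in all 3 high-ratio libraries. Rpl17-ps5 was listed at 0 on low-ratio milk and at 114, 27.9 and 52.7 on high-ratio milk. Their reads can be shared with the parent genes, so these values are uncertain and no fold is given. In the fits without 1 library, Gm48499 and Gm10259 passed in 6 of 7 and Gm3851 in 5.

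**Figure D4:**
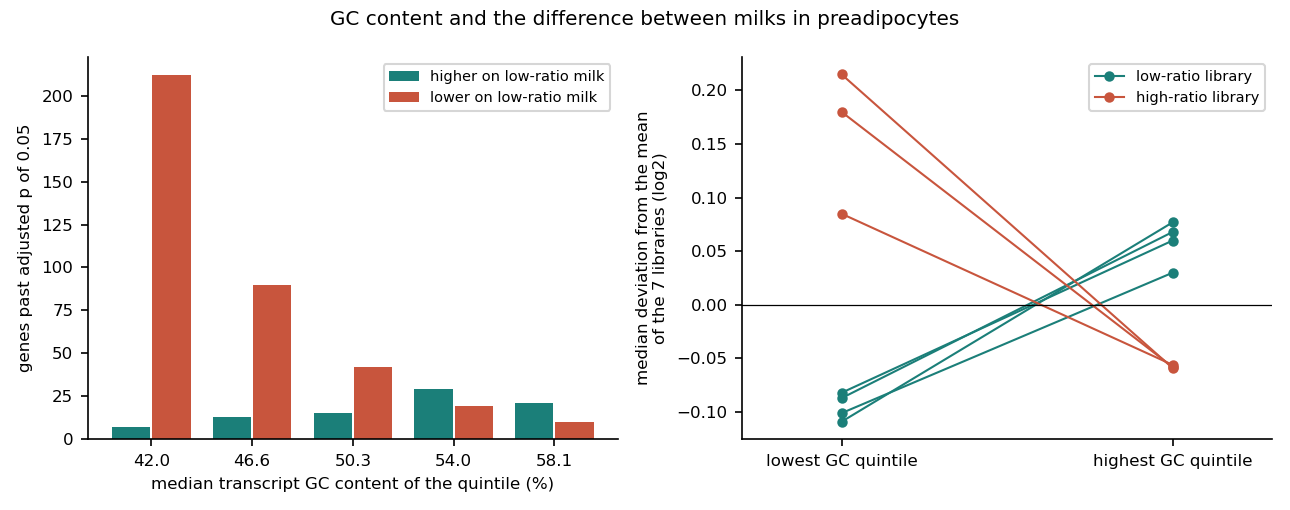
Left, genes past an adjusted p of 0.05 in each quintile of transcript GC content (labelled by the median GC of the quintile), higher or lower on low-ratio milk; right, median log2 deviation of each preadipocyte library from the mean of all 7 in the lowest and the highest GC quintile, low-ratio and high-ratio libraries. Lower calls drop with GC content, to 10 in the highest quintile against 212 in the lowest, and the libraries of the milks lie on opposite sides of 0 at both ends.

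The same milks left no call in CD24+ progenitors. The difference between populations was tested as an interaction over 15354 genes, without a block on library number. The trend on GC content and length was not removed for it. The interaction passed for 350 (2.28%), 96 with the milk effect higher in preadipocytes and 254 with it lower. With library number as a block, it passed for 43. In progenitors 0 of 15973 genes passed in limma, with 1099 at an unadjusted p under 0.05. Of the 85 genes higher in preadipocytes, 38 had a positive log2 fold change in progenitors (median −0.03) and 27 passed the interaction. Of the 370 lower genes tested in both, 174 were positive in progenitors (median −0.02) and 206 passed the interaction. Both sets were chosen by their preadipocyte values, which also enter the interaction. That choice raises the share that passes, so these shares are no separate support for a difference between populations. Donson had a log2 fold change of 2.32 ± 0.27 in preadipocytes and −0.84 ± 0.29 in progenitors, a difference of 3.16 ± 0.39 (SE, interaction adjusted p = 0.00242). Gpd2 had 3.003 ± 0.31 in preadipocytes and −1.17 ± 0.78 in progenitors, a difference of 4.17 ± 0.97 (SE, adjusted p = 0.037). Fbxw7 (1.33 ± 0.93 in progenitors, interaction adjusted p = 0.447) and Myo5b (1.02 ± 0.79, interaction adjusted p = 0.142) did not pass the interaction, and their progenitor estimates were positive. With library number as a block, Gpd2 (adjusted p = 0.106), Dnah2 (0.0571), Cacfd1 (0.0814) and Chp1 (0.0845), of which the last 3 are described next, did not pass, while Donson did (0.0412). Without 1 preadipocyte library the interaction passed for 304 genes without 108, 280 without 114, 137 without 119, 108 without 133, 70 without 1015, 95 without 1017 and 846 without 1019. Without 1 progenitor library it passed for 165 to 276 genes when the library was low-ratio (108, 114, 119 or 133) and for 128 to 218 when it was high-ratio (1015, 1017, 1018 or 1019).

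With no trend on GC content and length removed, the mitochondrially encoded genes carried a difference between populations. Of the 13, 10 passed the interaction (background 2.28%), and their median log2 fold change was −1.01 in preadipocytes and 0.39 in progenitors. The part of that trend in the interaction was not tested. In the lowest GC quintile the median log2 fold change was −0.24 in preadipocytes and 0.002 in progenitors, and in the highest 0.13 and 0.005. With the trend removed in preadipocytes alone, the median of the 13 was −0.31. mt-Cytb had −1.22 ± 0.13 in preadipocytes and 0.16 ± 0.08 in progenitors (difference −1.37 ± 0.15 SE, adjusted p = 0.00184). mt-Atp8 differed by −1.95 ± 0.23 (SE, adjusted p = 0.00225), mt-Nd4l by −1.48 ± 0.18 (adjusted p = 0.00225) and mt-Nd5 by −1.14 ± 0.14 (adjusted p = 0.00231). Of the 77 ribosomal protein genes 22 passed, with medians of −0.62 in preadipocytes and 0.01 in progenitors. Tceal9 differed by −1.06 ± 0.11 (SE, adjusted p = 0.00184). Among genes with a higher milk effect in preadipocytes, Dnah2, a dynein heavy chain of cilia, differed by 4.86 ± 0.69 (SE, adjusted p = 0.00498), the Ral exchange factor Rgl1 by 1.05 ± 0.17 (adjusted p = 0.0102), Cacfd1 by 0.93 ± 0.15 (adjusted p = 0.0122) and Chp1, a calcium-binding partner of sodium-proton exchangers, by 0.59 ± 0.10 (adjusted p = 0.0144). In preadipocytes alone Dnah2, Rgl1 and Cacfd1 missed the threshold (adjusted p = 0.0519, 0.0755 and 0.0564) and Chp1 passed (3290, 3540, 3536 and 3556 normalized counts on low-ratio milk, against 2393, 2605 and 2479 on high-ratio milk, adjusted p = 0.0347). The 2 tables were normalized separately, so levels are not compared between populations, and only shares within a library are set side by side. All genes of the mitochondrial genome took 2.5% to 3.03% of low-ratio and 4.54% to 6.35% of high-ratio preadipocyte libraries. In progenitors they took 2.16% to 2.72% on low-ratio and 1.78% to 2.16% on high-ratio milk. The high-ratio preadipocyte libraries thus had the highest shares of the series.

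**Figure D5:**
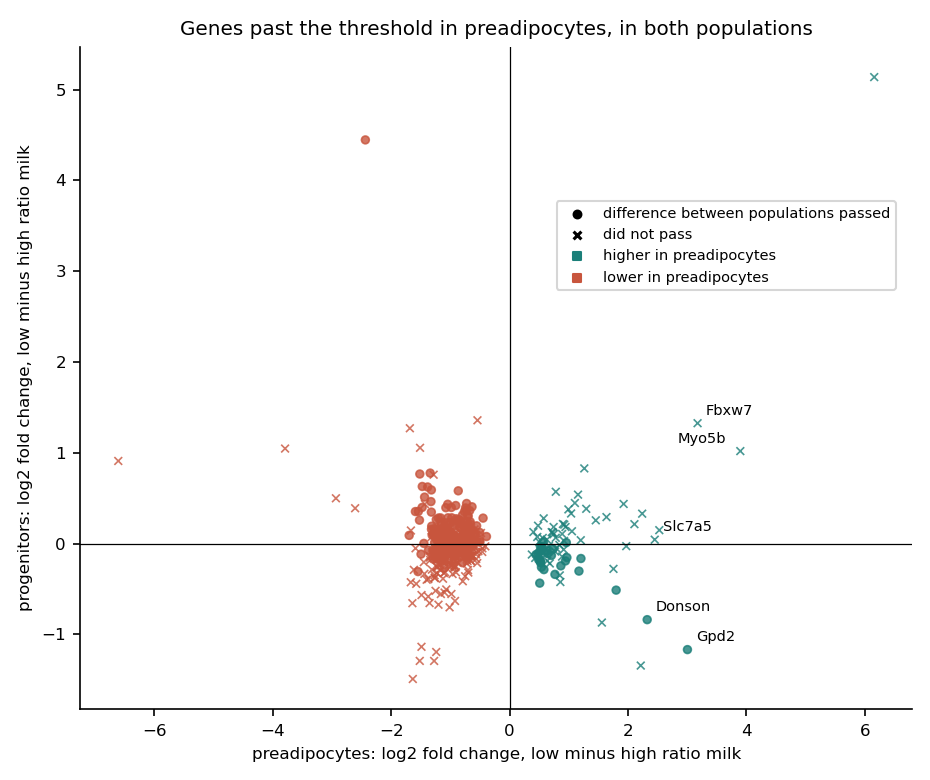
Log2 fold changes, low minus high ratio milk, in preadipocytes (horizontal) and progenitors (vertical) of the 455 genes called in preadipocytes and tested in progenitors; circles passed the test of the difference between populations (233 genes) and crosses did not. Lower genes in preadipocytes cluster near 0 in progenitors, where 174 of 370 are positive, and Gpd2 and Donson lie below 0 in progenitors. The genes were chosen by their preadipocyte values, which also enter the test of the difference, and this raises the share of circles.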

How the data were processed

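The authors deposited 1 expression table for preadipocytes and 1 for progenitors, with log2-scale values for each library. The authors used Salmon 0.14.2 and DESeq2 1.28.1 with mm10, a name of GRCm38, per the submitters' processing notes. Per the labels, libraries were made with NuGEN Universal Plus mRNA kits, with no strand setting or annotation release stated in them. The values the authors deposited behaved as variance-stabilized ones, and were turned back into normalized counts with the closed form of that transformation. The resulting fold changes differed from those of the authors' deposited table by a median of 0.00304 on the log2 scale over 11076 genes in preadipocytes and 0.000751 over 11164 in progenitors. Because raw counts were not used here, no count model was fitted.

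Genes with a mean of at least 10 normalized counts were tested on log2(normalized count + 1) with limma 3.58.1 in R 4.3.3, using its trend and robust options, at an adjusted p (Benjamini-Hochberg, over all genes) of 0.05. Fold changes on this scale understate the change of low genes. The difference between populations was an interaction in 1 fit over 15 libraries. Shares were tested with the exact permutation test of scipy 1.17.1. Names, positions and GC content came from GENCODE M21 on GRCm38 (23096 of 23118 preadipocyte and 23322 of 23347 progenitor identifiers) and promoters from RefSeq on GRCm38.p6. Depth, estimated at 13.9 to 69.0 M reads per preadipocyte library, came from the step between low values, with 28.8% to 79.6% of values whole within 0.02, so it is approximate. The fitting script was tested on simulated data.

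The members and gene lists were chosen with earlier results of these data known. Named genes were, in each direction, the 12 of smallest p that passed without overlap, leaving out pseudogenes and provisional names; from each list the members that passed, at most 6, or the 2 of smallest p; from each marker list the 2 of highest mean; 11 genes always named; and the 5 of smallest p in each direction of the interaction. Library numbers recur between populations, and same-numbered libraries deviated from their group means with correlations of −0.058 to 0.091. They were not treated as pairs in the fit reported, although such correlations do not show that they are independent. A block on library number was therefore run as an alternative. Alternatives were other pseudocounts, filters, scalings, limma options and weights, removal of a trend on GC content and transcript length, and leaving out each library.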

Additional observations from a re-analysis of the deposited data

Results flagged for a closer look

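In 8 of 161 groups of 4 low-ratio libraries that were checked, 1 library stood apart from the other 3 by Dixon's criterion at 95%; chance alone gives about 1 in 20. Groups of 3 were not checked. Library 114 was high for mt-Cytb, at 187100 normalized counts, and for Rps3a1, at 25470. Library 108 was high for Ube2w, at 1155, and low for Chp1, at 3290. Library 119 was low for Mgst3, at 392.7, and high for Ccnd3, at 8207, and for Des, at 379.5. Library 133 was high for Fads2, at 2543.

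The milk effect differed between preadipocytes and progenitors for 350 genes in the interaction of limma. Of the 10 genes named for it, the difference was positive for Donson (3.16 on the log2 scale), Dnah2 (4.86), Rgl1 (1.05), Cacfd1 (0.93) and Chp1 (0.59). It was negative for Tceal9 (−1.06), mt-Cytb (−1.37), mt-Nd4l (−1.48), mt-Atp8 (−1.95) and mt-Nd5 (−1.14). Taking library number as a replicate block left 43 genes. The count was 70 without preadipocyte library 1015 and 846 without preadipocyte library 1019.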

How the results depend on the processing

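All 95 named genes that passed kept their direction under every alternative tried. The number of calls did not keep its size. Against 458 calls, 85 higher and 373 lower, limma without trend and robust options gave 6 calls, 3 higher and 3 lower, array weights gave 1225, 388 higher and 837 lower, and removing the trend on GC content and length gave 12, 9 higher and 3 lower. A mean of at least 50 gave 149 higher genes. Scaling to the total without mitochondrial and ribosomal protein genes, chosen after seeing the data, gave 44 higher genes and moved the median of all genes to −0.054, against 0.043. Leaving out 1 library gave 2 to 1160 calls, 0 to 347 higher and 0 to 813 lower, with the highest counts without high-ratio library 1019; the cause was not tested beyond these counts, and fewer libraries also give fewer degrees of freedom.

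No paired analysis was possible within preadipocytes because the low- and high-ratio libraries share no library number. For the interaction, the replicate block on library number gave 43 genes, 8 higher and 35 lower, against 350 without it, and leaving out 1 of 15 libraries gave 70 to 846. The shares of mitochondrial, ribosomal protein and collagen genes kept their direction under every alternative; without the 50 genes of highest mean the collagen difference was 0.141 points, against 4.95.

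Genes with reversed signs had not passed. Nr2f2 was −0.012 under upper-quartile scaling, −0.049 with the trend removed, −0.079 without mitochondrial and ribosomal genes in the scaling and −0.153 to 0.194 without 1 library. Cdh5 was −0.054 with array weights and −0.186 to 0.478 without 1 library. Leaving out 1 library gave −0.229 to 0.146 for Plin1, −0.043 to 0.492 for Csf1r, −0.263 to 0.796 for Cd79a, −0.679 to 0.069 for Acta1 and −0.082 to 0.065 for Cd24a. High-ratio libraries 1015 and 1019 were the shallowest, at 13.9 and 22.9 M estimated reads, and high-ratio library 1017 was the deepest, at 69.0 M. The part of depth in the values of low genes was not tested.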

Other observations

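The pseudogene Gm3851, listed at 0 in all 3 high-ratio preadipocyte libraries, had progenitor means of 114 normalized counts on low-ratio milk and 25.7 on high-ratio milk, and did not pass there (adjusted p = 0.591). Its reads can be shared with its parent gene, so these values are uncertain. The test of the difference in milk effect between the populations did not pass for it (interaction adjusted p = 0.801).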
